A study of Homo sapiens with 72 samples.

Results

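The 4 wells of wildtype normal human dermal fibroblasts, the primary connective tissue cells of the skin, that received 3.33 µM omaveloxolone for 24 hours were compared with the 32 wells of the same cells that received the solvent DMSO for the same time. They are 4 of the 72 wells measured, chosen by their dose label alone, and the 4 wells at 1.11 µM, the next lower dose, served as a further comparison. DMSO is the label of 32 wells, all used here, although the labels' protocol speaks of 16 control wells on each plate. All wells had positions on a 384-well plate, carried no edited allele and received no other named agent, and the labels name no separate cultures or donors. The p-values therefore rest on the spread from well to well, and this may be technical. DMSO filled columns near both edges of the plate and the treated wells lay further in, so dose and plate position cannot be fully told apart. RNA was read by DRUG-seq, in which each well's lysate receives a barcode and the 3′ ends of polyadenylated RNA from all wells are sequenced together.

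Omaveloxolone, a semi-synthetic triterpenoid, acts on KEAP1, the adaptor that sends the transcription factor NRF2 for degradation. NRF2 that escapes it switches on genes of detoxification and antioxidant defence. Further programmes are known from electrophilic compounds at high doses in cultured cells. The heat shock programme, driven by HSF1, makes chaperones such as the HSP70 proteins. The mRNAs of ribosomal proteins are long-lived in many cells and begin with a pyrimidine-rich stretch, the 5′ terminal oligopyrimidine (TOP) motif, through which their translation is controlled by mTOR signalling and LARP1.

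Wells at 3.33 µM gave few counts. Their totals were 166277, 132317, 171343 and 208739 counts in replicates 1 to 4, against 4910790 to 8685413 counts (median 6483930) in the DMSO wells. Every treated well was far below the lowest DMSO well, and the mean total was 39.2-fold lower (exact two-sided permutation test over all 58905 splits, n = 4 and 32, p = 1.69765e-05, the smallest these splits allow, and the same after adjustment over 4 single measures). The labels name no added RNA standard, so counts do not measure the amount of RNA directly. In bulk wells, fewer cells and less RNA per cell cannot be told apart. Wells at 1.11 µM held 1565620 counts on average. The comparisons that follow therefore concern each gene's share of a well's counts, given as CPM, its counts divided by the well's total and scaled to a fixed library size, unless raw counts are named.

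Fewer kinds of RNA were seen as well, and this remained when depth was matched. With every well thinned at random to 132317 counts, 4602.5 ± 325 genes were detected at 3.33 µM (mean ± SD, n = 4; 4173 to 4909) and 9237 ± 202 in DMSO wells (n = 32; 8892 to 9654), with 8002 ± 138 at 1.11 µM (n = 4). The 50 most abundant genes took 42.7 ± 0.695% of the thinned counts at 3.33 µM and 31.3 ± 1.07% in DMSO wells. Both measures had no overlap between the groups and the same exact permutation p of 1.69765e-05. The treated wells were thus set apart by depth, by the number of genes and by the weight of a few abundant mRNAs, as the plot of single wells shows.

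**Figure D1:**
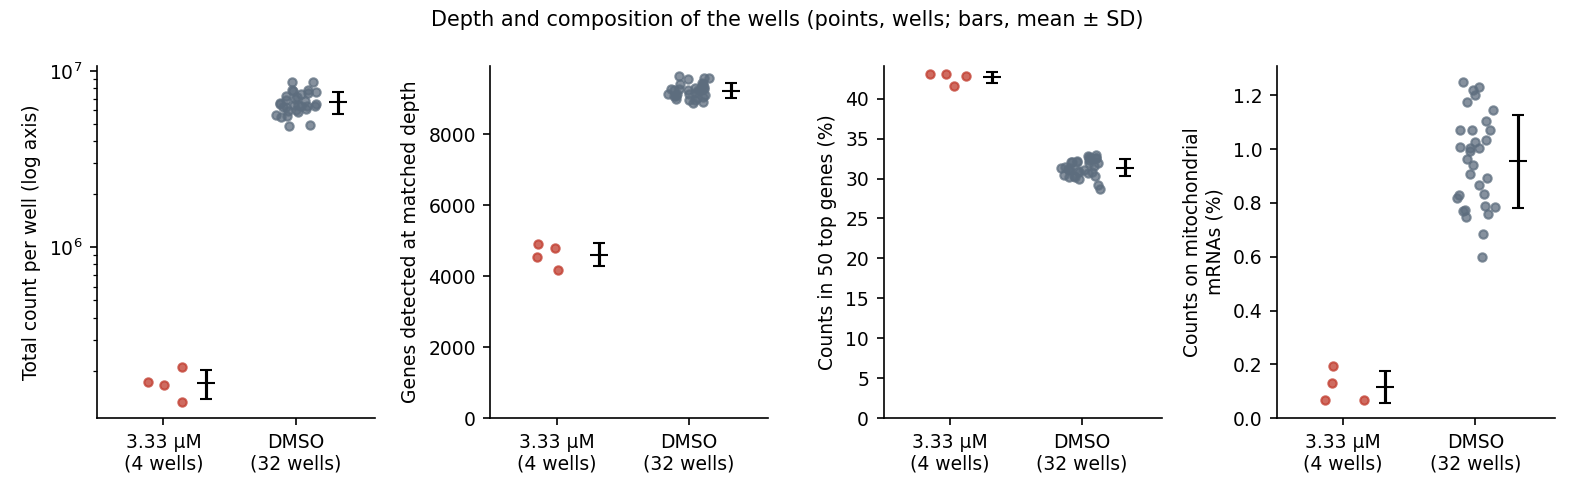
Total count, genes detected after thinning to 132317 counts, share of counts in the 50 most abundant genes and share on mitochondrially encoded mRNAs, for each well at 3.33 µM and each DMSO well, with the mean ± SD beside the points. The 4 treated wells lie between 132317 and 208739 total counts on the log axis and lie apart from all 32 DMSO wells in every panel.

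Fibroblast markers took shares that overlapped those of the DMSO wells. The 14 fibroblast markers took 7.95% of counts at 3.33 µM (7.73 to 8.30%, summed over the list) and 7.75% in DMSO wells (7.12 to 8.48%), and 0 of the 14 were without a count in the treated wells. VIM alone made up most of this share. Single markers differed in both directions by edgeR, which called 6 of 12 tested higher and 2 lower, against 28.5% and 29.5% of all tested genes. They ran from THY1 at 1.11 to LUM at -2.42 on the log2 scale, and 0 passed both tests. VIM, the intermediate filament protein vimentin, was the most abundant gene, at 59269, 54800, 58444 and 56305 CPM in the treated wells and 52451 to 64989 CPM in the DMSO wells, which overlapped. Markers of other skin and blood cells took small shares. Of those counted, 4 of 7 keratinocyte, 4 of 5 melanocyte, 5 of 6 endothelial and 7 of 9 immune markers had 0 counts in all 4 treated wells. At this depth such zeros say little, since 4173 to 5288 of 23132 genes had a count in a treated well. The summed level of the keratinocyte list was 0.0326% of counts at 3.33 µM and 0.0454% in DMSO wells, and CD68, a lysosomal protein of macrophages that fibroblasts also make, accounted for most of the immune list.

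The depth limits which genes can be described. A gene was tested where the mean level of both groups predicts at least 10 counts in the shallowest treated well, which left 1794 genes. Of these, 1627 had a DMSO mean that itself predicts at least 10 counts (75.6 CPM or more). The other 167 were kept only through the treated wells, which fixes a higher level for them. As the filter takes the mean of both groups, a gene not far above 75.6 CPM in DMSO was dropped where its treated level was much lower. Such falls could not be called, so counts of higher and lower genes are not balanced. edgeR's quasi-likelihood test called 1040 of the 1794 (58%), 511 higher (28.5%) and 529 lower (29.5%), at an adjusted p of 0.05 over all tested genes. The median log2 fold change over all tested genes was -0.03, and with library totals in place of TMM scaling it was -0.20 and the split became 417 higher and 659 lower. Changes are read against that median. With the 4 DMSO wells of the treated wells' own plate rows in place of all 32, edgeR called 189.

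The treated wells varied among themselves far more than the DMSO wells, which a shared estimate of spread does not see. The biological coefficient of variation over the tested genes was 100.1% among the 4 treated wells, 17.9% among the DMSO wells, 15.0% among DMSO wells thinned to the treated depth and 34.5% at 1.11 µM. In thinned counts, the variance was 10.6 times the mean at 3.33 µM (median over genes) and 1.57 times in DMSO wells. A well with 0 counts occurred for 511 tested genes among the 4 treated wells and for 28 among the 32 DMSO wells. A voom test in limma that gives each group its own spread called 118 genes (6.58%), 80 higher (4.46%) and 38 lower (2.12%), and all 118 were also called by edgeR in the same direction. Below, a gene is said to rise or fall only where it passed both tests. This stricter rule was chosen after the data were seen.

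Ribosomal protein mRNAs formed the largest block of the rise. These 78 mRNAs, which encode the proteins of the small and large subunits of the cytosolic ribosome, took 25.9%, 26.2%, 24.8% and 26.1% of counts in the treated wells and 10.2 to 12.8% (median 11.8%) in the DMSO wells. Every treated well thus stood well above every DMSO well, and the 95% Wilson interval of replicate 3, the lowest, was 24.6 to 25.0%, which covers counting error only. Of 77 tested members, edgeR called 75 higher and 0 lower, against 28.5% of all genes called higher, and 53 passed both tests, against 4.46% of all genes. In 62 members all 4 treated wells lay above all 32 DMSO wells, against 6.52% of all tested genes. Over the list the median log2 change was 1.20, with -0.03 over all genes. RPS26 (0.35, adjusted p = 0.0510) and RPL4 (-0.21, adjusted p = 0.0561) were the members that edgeR did not call.

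The counts behind these shares were lower than in DMSO wells, as for nearly every gene. The list held 43727 counts per well on average at 3.33 µM and 766405 in DMSO wells. Of all 1794 tested genes, 1782 had fewer raw counts in each treated well than in any DMSO well, and the median gene had 45.8-fold fewer. The rise of the ribosomal protein genes is a rise in their share.

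RPL36, a protein of the large subunit, showed the rise well by well. It stood at 5557, 4950.2, 4827 and 5725 CPM in the treated wells, against 1108 to 1458 CPM (median 1293) in the DMSO wells. This is a log2 fold change of 2.23 ± 0.058 (SE; edgeR adjusted p = 8.39e-31, voom adjusted p = 4.92e-12). Here and below, the SE comes from edgeR's shared spread, so it is too small for genes whose treated wells vary widely. The lowest treated well was above the highest DMSO well by a wide gap, and the 4 wells differed little.

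RPS19, a small subunit protein whose mutation causes Diamond-Blackfan anaemia, was among the most abundant mRNAs of the treated wells. It took 16647, 15969, 15052 and 16221 CPM there and 4242 to 5645 CPM in the DMSO wells, a log2 fold change of 1.85 ± 0.049 (edgeR adjusted p = 1.11e-30, voom adjusted p = 3.04e-13). RPL31 (1.87) and RPL13 (1.77), both of the large subunit, and RPS14 (1.65) and RPLP1 (1.48), of the small subunit and the stalk, also passed both tests with no overlap of the groups. Among the 53 the smallest change was 0.94. RPS4X, a further small subunit protein that is not in the list, passed both tests at 0.81 and is counted among the 27 other genes that rose. Ribosomal protein genes have many processed pseudogenes, and how reads shared with such copies were counted is not given in the sources used here.

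The sequences at the annotated starts of the ribosomal protein genes are shown because these mRNAs rose together and are known as a class for the TOP motif. The motif was searched as a C followed by at least 4 bases that are each C or T, on the gene's strand, starting within 5 bases of the annotated start. Of the members with the largest rises past both tests, 6 that have a RefSeq promoter entry (build GRCh38.p14) are given from 20 bases before the start to 25 bases after it, with the longest such stretch in capitals.
RPL36 (chr19:5690275-5690319, plus strand): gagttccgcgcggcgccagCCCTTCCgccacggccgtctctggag
RPL31 (chr2:101002269-101002313, plus strand): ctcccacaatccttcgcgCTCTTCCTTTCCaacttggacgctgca
RPS19 (chr19:41860235-41860279, plus strand): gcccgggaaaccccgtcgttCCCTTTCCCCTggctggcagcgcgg
RPL29 (chr3:51995871-51995915, minus strand): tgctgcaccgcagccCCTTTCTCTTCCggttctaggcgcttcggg
RPS9 (chr19:54200838-54200882, plus strand): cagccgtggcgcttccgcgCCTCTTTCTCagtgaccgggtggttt
RPL13 (chr16:89560637-89560681, plus strand): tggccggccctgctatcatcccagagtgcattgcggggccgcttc

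RPL13 has no match in this window. Of the 77 tested ribosomal protein genes, 61 had an entry and 50 of these (82.0%) held a match, against 5749 of all 27305 promoters (21.1%) and 397 of 1478 promoters of tested genes (26.9%). Among the other genes that rose, 10 of 23 with an entry (43.5%) held a match. Among the genes that fell, 7 of 28 (25%) did. A match is a description of these letters at annotated starts, which can lie some bases from the start used in these cells.

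Other mRNAs of the translation machinery were mixed. Of 19 tested translation factors, edgeR called 8 higher and 5 lower, against 28.5% and 29.5% of all tested genes, and 3 passed both tests, all higher. TPT1, the translationally controlled tumour protein, itself made from a TOP mRNA, took 7788, 6401, 6239 and 7157 CPM at 3.33 µM and 3601 to 4596 CPM in DMSO wells, a log2 fold change of 0.96 ± 0.054 (edgeR adjusted p = 3.41e-19, voom adjusted p = 0.000408). EEF1D (1.44), a subunit of the exchange factor of elongation factor 1, and EIF3K (1.39), a subunit of initiation factor 3, rose as well, though EIF3K lost the call with library totals and without replicate 2, 3 or 4. EEF1A1, the elongation factor that brings aminoacyl-tRNA to the ribosome, was at 45173 to 52903 CPM in the treated wells and 34041 to 44532 CPM in DMSO wells and passed edgeR alone (log2 0.47, voom adjusted p = 0.128). EIF4A1, the helicase of cap-dependent initiation, had a log2 change of -1.67 in edgeR alone (voom adjusted p = 0.241).

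**Figure D2:**
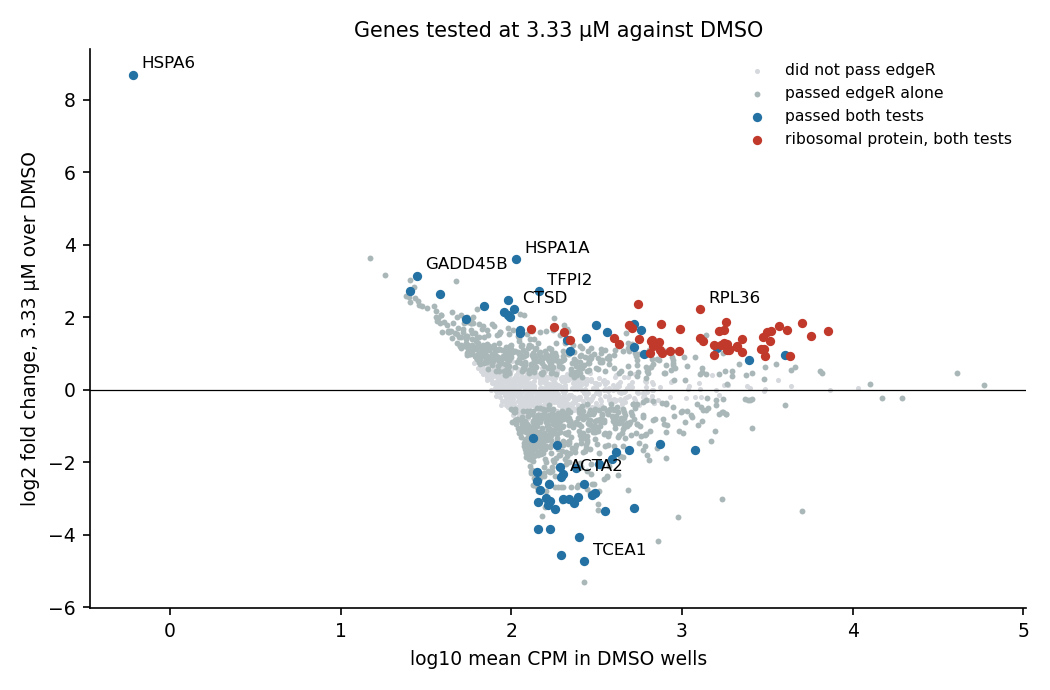
Log2 fold change of each tested gene with more than 3 counts over the treated wells, against the log10 mean CPM in DMSO wells, coloured by the tests passed. Listed ribosomal protein genes that passed both tests lie at 0.94 or above on the vertical axis, and the empty lower left corner comes from the depth filter.

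The heat shock genes HSPA6 and HSPA1A had the largest rises of all genes past both tests. HSPA6 encodes an HSP70 chaperone that is nearly silent in unstressed human cells. It had 51, 30, 21 and 57 raw counts in the treated wells, against 0 to 38 (mean 4.125) in DMSO wells that were 39.2-fold deeper on average, and was the only tested gene with a higher mean raw count at 3.33 µM. In CPM it stood at 307, 227, 123 and 273 in the treated wells and 0 to 5.68 in the DMSO wells (log2 fold change 8.70 ± 0.76, edgeR adjusted p = 5.68e-13, voom adjusted p = 3.04e-13). After thinning to 132317 counts, 3 of the 32 DMSO wells held an HSPA6 count, and none held more than 1, while the treated wells held 15 to 42.

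HSPA1A, the main stress-inducible HSP70, stood at 1227, 1549, 759 and 1107 CPM in the treated wells, against 66.0 to 147 CPM (median 108) in the DMSO wells. Its log2 fold change was 3.62 ± 0.13 (edgeR adjusted p = 2.01e-25, voom adjusted p = 6.77e-11), and the groups did not overlap. DNAJB1, the HSP40 partner of HSP70, stood at 217, 128, 152 and 235 CPM in the treated wells and 31.8 to 82.5 CPM in the DMSO wells (log2 1.96 ± 0.21, edgeR adjusted p = 1.75e-10, voom adjusted p = 0.0343). HSPA1A has a near-identical copy, HSPA1B, and HSPA6 has a pseudogene copy, HSPA7, so these values are uncertain as to the copy. HSPA6 and DNAJB1 were kept for testing only through their level in the treated wells.

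The promoters of HSPA6 and HSPA1A are shown because both genes rose and both hold a match to the heat shock element. This element is the site that HSF1 binds, and binding was not tested. It was searched as GAANNTTC or TTCNNGAA, each of which reads the same on both strands, and overlapping matches were allowed. The 200 bases before the RefSeq start (build GRCh38.p14) are given with every match in capitals.
HSPA6 (chr1:161524340-161524539, plus strand): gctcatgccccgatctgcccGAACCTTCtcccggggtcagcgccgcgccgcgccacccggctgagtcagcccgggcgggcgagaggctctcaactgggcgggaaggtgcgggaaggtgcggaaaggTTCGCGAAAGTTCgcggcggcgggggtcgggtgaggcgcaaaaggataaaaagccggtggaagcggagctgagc
HSPA1A (chr6:31815343-31815542, plus strand): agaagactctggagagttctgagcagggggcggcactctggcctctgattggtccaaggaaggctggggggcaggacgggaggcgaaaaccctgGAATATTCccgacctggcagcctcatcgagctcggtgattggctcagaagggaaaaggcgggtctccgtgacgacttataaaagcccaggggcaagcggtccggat

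In 300 bases around the start, HSPA6 held 3 matches, HSPA1A 1 and DNAJB1 0. DNAJB1 rose too, and its promoter is not shown. A match occurred in 3738 of all 27305 promoters (13.7%) and in 171 of 1478 promoters of tested genes (11.6%). It occurred in 11 of 61 ribosomal protein genes (18.0%), 5 of 23 other genes that rose (21.7%) and 2 of 28 that fell (7.14%).

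By gene the heat shock list was mixed, while its summed share was higher in every treated well than in any DMSO well. Of 16 tested members, edgeR called 7 higher and 3 lower, against 28.5% and 29.5% of all tested genes. DNAJB1 and HSPA1A were the members that passed both tests, while HSPA6 stood outside the list. The median log2 change was 0.28. HSPA8, the constitutive HSP70, averaged 473 ± 264 CPM at 3.33 µM and 510.0 ± 40.9 CPM in DMSO wells, and CRYAB, a small heat shock protein, averaged 501 ± 348 CPM at 3.33 µM and 509 ± 46.2 CPM in DMSO wells. HSP90AA1, the inducible HSP90, averaged 221 ± 89.4 CPM at 3.33 µM and 485 ± 39.7 CPM in DMSO wells. The list's share of counts, HSPA1A included, was 0.901 ± 0.0698% at 3.33 µM (0.815 to 0.981%). In DMSO wells it was 0.672 ± 0.0234% (0.624 to 0.728%), with no overlap.

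Outside these groups, single genes rose. GADD45B, a stress-induced regulator of MAP kinase signalling, stood at 204, 60.5, 146 and 441 CPM in the treated wells and 13.2 to 53.3 CPM in the DMSO wells (log2 3.15 ± 0.28, edgeR adjusted p = 9.85e-13, voom adjusted p = 0.00116). TFPI2, a secreted inhibitor of serine proteases in the matrix, stood at 607, 1020.3, 875 and 853 CPM in the treated wells, against 95.8 to 202 CPM (log2 2.72 ± 0.15, edgeR adjusted p = 1.79e-19, voom adjusted p = 3.65e-05). Both lay above every DMSO well, but GADD45B spread widely over the 4 wells and TFPI2 did not. ID1, an inhibitor of basic helix-loop-helix factors, stood at 848, 212, 543 and 311 CPM in the treated wells and 63.1 to 150.3 CPM in the DMSO wells (log2 2.49 ± 0.19, voom adjusted p = 0.00169).

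SLC2A4, the insulin-responsive glucose transporter GLUT4, stood at 283, 333, 309 and 297 CPM in the treated wells and 51.5 to 90.8 CPM in the DMSO wells (log2 2.33 ± 0.15, edgeR adjusted p = 2.12e-17, voom adjusted p = 0.000156). CTSD, the lysosomal protease cathepsin D, stood at 668, 287, 309 and 426 CPM in the treated wells, against 55.1 to 165 CPM in the DMSO wells (log2 2.22 ± 0.20, voom adjusted p = 0.0305). CTSD and DNAJB1 lost the call by both tests with library totals and without replicate 1, 3 or 4. CTSD was the member of the lysosome and autophagy list that passed both tests. Of the list's 14 tested members, edgeR called 9 higher and 1 lower, against 28.5% and 29.5% of all tested genes. Of the 27 genes outside the ribosomal protein list that rose, 6 (HSPA6, GADD45B, SLC50A1, MRPL14, DNAJB1 and SLC2A4) were kept for testing only through the treated wells.

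How many genes passed both tests again depended on the setting, in different ways for rises and falls. With library totals, all 38 that fell passed again, with 48 of the 53 ribosomal protein genes and 16 of the 27 others that rose. With the DMSO wells thinned to the treated depth, all 53 ribosomal protein genes and all 27 others that rose passed both tests again, but 5 of the 38 that fell did. In that setting 154 genes passed both tests, 136 higher and 18 lower. The 136 were 65 ribosomal protein genes and 71 others, so the split of 80 higher and 38 lower did not hold at matched depth. With any 1 of the 4 treated wells left out, 43 to 52 of the 53, 12 to 21 of the 27 and 6 to 13 of the 38 passed again. The fewest ribosomal protein genes and the fewest other risen genes remained without replicate 4, and the fewest fallen genes without replicate 1. Outside the ribosomal protein list, HSPA6, HSPA1A, TFPI2, SLC2A4, PA2G4, SNRPD2, SSR4, RACK1, LRRC75A and TPT1 passed both tests in each of these settings and with library totals, and they are named after their values were seen. HSPA6 and SLC2A4 are among the 6 genes kept for testing only through the treated wells, so the filter fixed a higher level for these 6, and their passing again is no support. PA2G4 acts in growth control, SNRPD2 in the splicing core, SSR4 at the translocon and RACK1 on the small ribosomal subunit. LRRC75A overlaps an antisense gene, LRRC75A-AS1, and whether the counting used strand is not given in the sources used here, so their reads cannot be told apart. The same holds for 62 of the 118 genes past both tests, which overlap a gene on the other strand, RPL36, HDAC2, ACTA2 and SLC2A4 among them.

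The deepest falls past both tests left almost no counts in the treated wells. HDAC2, a class I histone deacetylase, had 0 counts in all 4 treated wells, where its DMSO level predicts 112 counts, so it was at least 37.4-fold lower (floor of 3 counts over the group). Thinned DMSO wells held 11 to 37 HDAC2 counts each. DPM1, the catalytic subunit of dolichol-phosphate mannose synthase, had 3 counts over the 4 wells, 43.5-fold below its DMSO level (95% counting interval 14.9 to 211). RNF11, a ubiquitin ligase adaptor, also had 3 counts, 43.1-fold below (14.7 to 209), all of them in replicate 2. Such intervals cover counting error only. All 3 genes lost the call by both tests when the DMSO wells were thinned, and HDAC2 lost it with any 1 treated well left out.

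TCEA1, the transcript cleavage factor TFIIS of RNA polymerase II, stood at 0, 22.7, 5.84 and 9.58 CPM in the treated wells, against 196 to 345 CPM in the DMSO wells (log2 -4.72 ± 0.34, edgeR adjusted p = 7.26e-16, voom adjusted p = 0.0214). ZNF706, a small zinc finger protein, and NDUFB6, a subunit of respiratory complex I, fell, with log2 fold changes of -4.55 and -4.05. GTF3C6, of the RNA polymerase III factor TFIIIC, and RNF10, a ubiquitin ligase, fell as well (log2 -3.85 and -3.84). In these genes the 4 treated wells, with at most 7 raw counts each, lay below all DMSO wells. All 5 lost the call by both tests when the DMSO wells were thinned. TMED2, a cargo receptor of early secretory vesicles, and SDCBP, the adaptor syntenin, had edgeR changes of -5.32 and -4.17 but missed the voom test (adjusted p = 0.0535 and 0.0741).

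ACTA2, the smooth muscle actin of myofibroblasts, fell. It stood at 120.3, 0, 5.84 and 4.79 CPM in the treated wells and 141 to 273 CPM in the DMSO wells (log2 -2.42 ± 0.36, edgeR adjusted p = 2.1e-07, voom adjusted p = 0.0246), with replicate 1 close to the DMSO range. The call by both tests was lost with thinned DMSO wells and without replicate 2, 3 or 4. Of the 19 tested contractile genes, edgeR called 4 higher and 8 lower, against 28.5% and 29.5% of all tested genes. ACTA2 was the member that passed both tests. The list took 9.78% of counts at 3.33 µM and 10.4% in DMSO wells. The fibrillar matrix genes were mixed, with 8 called higher and 5 lower of 24 by edgeR, against the same all-gene shares, and 0 past both tests. TIMP1, the inhibitor of metalloproteases, stood at 3717, 4633, 2761 and 2937 CPM in the treated wells and 883 to 1818 CPM in the DMSO wells, and passed edgeR alone (log2 1.52, voom adjusted p = 0.0846).

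The mRNAs encoded in the mitochondrial genome, which is transcribed inside the organelle into subunits of the respiratory chain, were scarce. They took 0.0680%, 0.132%, 0.196% and 0.0690% of counts in the treated wells and 0.600 to 1.25% (median 0.977%) in the DMSO wells. The highest treated well was below the lowest DMSO well, and the mean share was 8.24-fold lower (exact two-sided permutation test over 58905 splits, n = 4 and 32, p = 1.69765e-05, the smallest possible). These shares rest on 113 to 335 counts per treated well, and the 95% Wilson interval of replicate 3, the highest, was 0.176 to 0.218%. The wells at 1.11 µM had 0.0211 ± 0.00566%, below 3.33 µM.

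By gene, 8 of the 13 could be tested and edgeR called all 8 lower, against 29.5% of all genes, with a median log2 change of -2.91. In 7 of them the groups did not overlap, against 13.2% of all genes that lay below every DMSO well. None passed the voom test. MT-CO2, of cytochrome c oxidase, stood at 6.01, 37.8, 52.5 and 168 CPM in the treated wells and 597 to 1241 CPM in the DMSO wells (edgeR log2 -3.52 ± 0.28, voom adjusted p = 0.120), and MT-ND2, of complex I, at 18.0, 15.1, 17.5 and 0 CPM against 97.6 to 194 CPM (voom adjusted p = 0.0532). The wells agreed on the direction but not on the level, with replicate 1 lowest and replicate 4 highest in MT-CO2 and the order turned round in MT-ND2. Nuclear genes of the respiratory chain were mixed. Of 39 tested, edgeR called 11 higher and 12 lower, against 28.5% and 29.5% of all tested genes. COX4I1, of cytochrome c oxidase, rose (log2 0.98), and NDUFB6, a complex I subunit outside the list, fell (-4.05). COX4I1 lost the call with library totals and without replicate 1 or 4. The list took 1.01% of counts at 3.33 µM and 1.04% in DMSO wells.

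NRF2 target genes took a smaller share of counts at 3.33 µM, and 0 of them passed both tests as higher. The 41 targets include enzymes of detoxification, glutathione and NADPH supply, and the ferritin light chain FTL. They took 1.95 ± 0.251% of counts at 3.33 µM and 2.64 ± 0.150% in DMSO wells, with 12.2 ± 0.268% at 0.37 µM and 2.95 ± 0.481% at 1.11 µM. FTL alone made up most of the share at 3.33 µM, in DMSO wells and at 0.37 µM, with 14635, 19433 and 81332 CPM. The log2 change of FTL against DMSO was -0.23 and passed edgeR alone. Of 18 tested, edgeR called 3 higher and 9 lower, against 28.5% and 29.5% of all tested genes. In 0 of the 18 did all treated wells lie above all DMSO wells, against 6.52% of all tested genes. The median log2 change was -0.31. AKR1B1, aldose reductase, was the member past both tests (log2 -2.14 ± 0.27, voom adjusted p = 0.0258), at 18.0, 83.1, 0 and 57.5 CPM in the treated wells and 156 to 235 CPM in the DMSO wells. It lost the call by both tests with thinned DMSO wells and without replicate 1 or 3.

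HMOX1, heme oxygenase 1, stood at 84.2, 227, 280.1 and 211 CPM in the treated wells, against 307 to 562 CPM (median 432) in the DMSO wells. All treated wells were lower, but the difference passed edgeR alone (log2 -0.91 ± 0.17, adjusted p = 2.16e-05, voom adjusted p = 0.430). NQO1, the quinone reductase, stood at 367, 249, 17.5 and 235 CPM in the treated wells and 318 to 509 CPM in the DMSO wells, with overlap (log2 -0.73, voom adjusted p = 0.257). TXNRD1, thioredoxin reductase, stood at 114, 52.9, 17.5 and 144 CPM in the treated wells and 257 to 412 CPM in the DMSO wells (log2 -1.74, voom adjusted p = 0.140). NFE2L2, which encodes NRF2 itself, had counts in 2 of the 4 wells, at 72.2 and 64.2 CPM, against 87.0 to 208 CPM in the DMSO wells. SQSTM1, the autophagy receptor p62, was at 60.1 to 187 CPM in the treated wells and 77.0 to 106 CPM in the DMSO wells. SLC7A11, the cystine transporter, had 0 counts in the treated wells and 6.84 CPM on average in DMSO wells, too low for a test at this depth. GCLM, of glutathione synthesis, and KEAP1 were also below the depth filter.

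**Figure D3:**
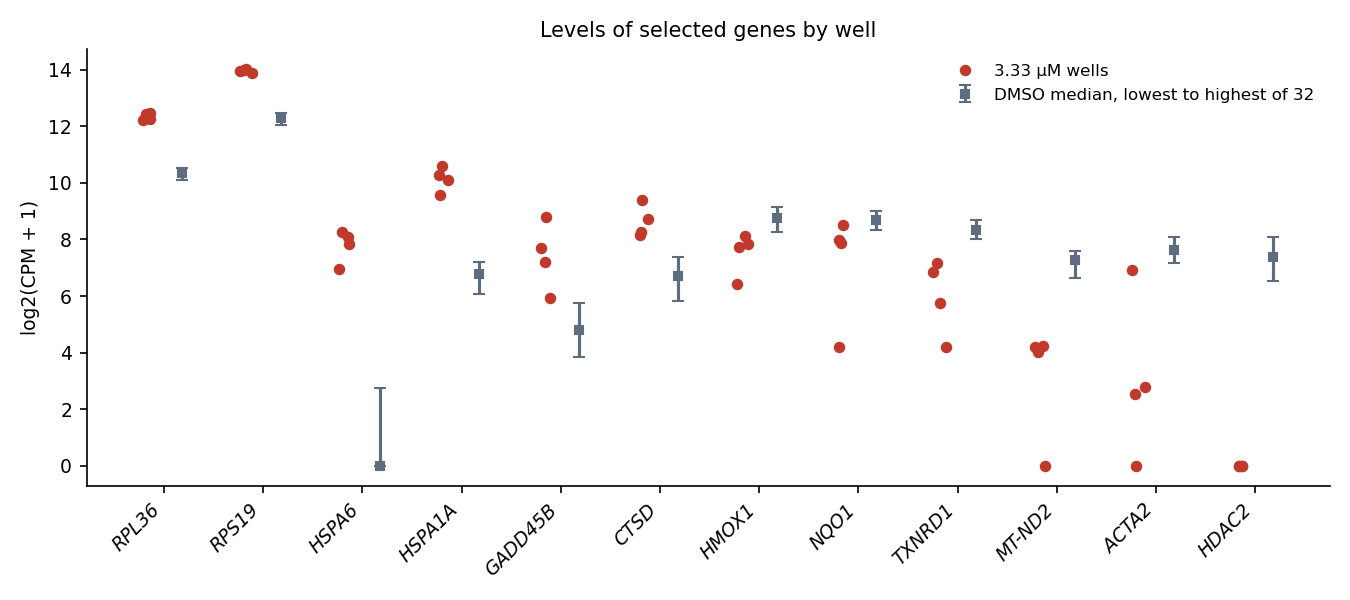
Level of selected genes as log2(CPM + 1), for each of the 4 wells at 3.33 µM (points) and for the DMSO wells (square, median; bar, lowest to highest of 32). RPL36, RPS19, HSPA6, HSPA1A, GADD45B and CTSD lie above the DMSO range in all 4 wells, HMOX1, TXNRD1, MT-ND2, ACTA2 and HDAC2 lie below it, and NQO1 overlaps it.

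Genes of the integrated stress response, HSPA5 and JUN gave no call by both tests. Of 11 tested genes of the integrated stress response, edgeR called 4 higher and 3 lower, against 28.5% and 29.5% of all tested genes, and 0 passed both tests. ATF4, its main transcription factor, stood at 102, 106, 239 and 81.4 CPM in the treated wells and 133 to 211 CPM in the DMSO wells (log2 -0.15, edgeR adjusted p = 0.459). HSPA5, the chaperone BiP of the endoplasmic reticulum, stood at 18.0, 355, 233 and 33.5 CPM in the treated wells, on both sides of the 138 to 327 CPM of the DMSO wells. JUN, an immediate early factor, was at 33.5 to 420.2 CPM in the treated wells and 117 to 175 CPM in the DMSO wells. FOS, EGR1, ATF3 and DDIT3 were below the depth filter, with FOS at 253, 7.56, 0 and 9.58 CPM and EGR1 at 0, 151, 0 and 144 CPM in the treated wells. The wells disagreed among themselves in each of these genes.

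The remaining lists gave few calls by both tests. Their edgeR counts stand against 28.5% of all tested genes called higher and 29.5% called lower. Proteasome subunits had 2 of 17 tested called higher and 4 lower by edgeR, splicing proteins 1 of 20 higher and 7 lower, chaperones of the endoplasmic reticulum 4 of 8 higher and 1 lower, and glycolysis enzymes 1 of 9 higher and 2 lower. None of these 4 lists had a member past both tests. Cell division genes had 3 of 8 tested called higher and 2 lower, p53 targets 2 of 6 higher and 0 lower, cell death regulators 1 of 4 in each direction, and cholesterol synthesis genes 0 of 6 higher and 1 lower, again with 0 past both tests. Among immediate early genes, 4 of 9 were called higher and 1 lower by edgeR, and GADD45B passed both tests. Of these 9, 2 were kept only through the treated wells, GADD45B among them, so these counts support no direction. Inflammatory mediators and metallothioneins had 1 tested gene each.

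**Figure D4:**
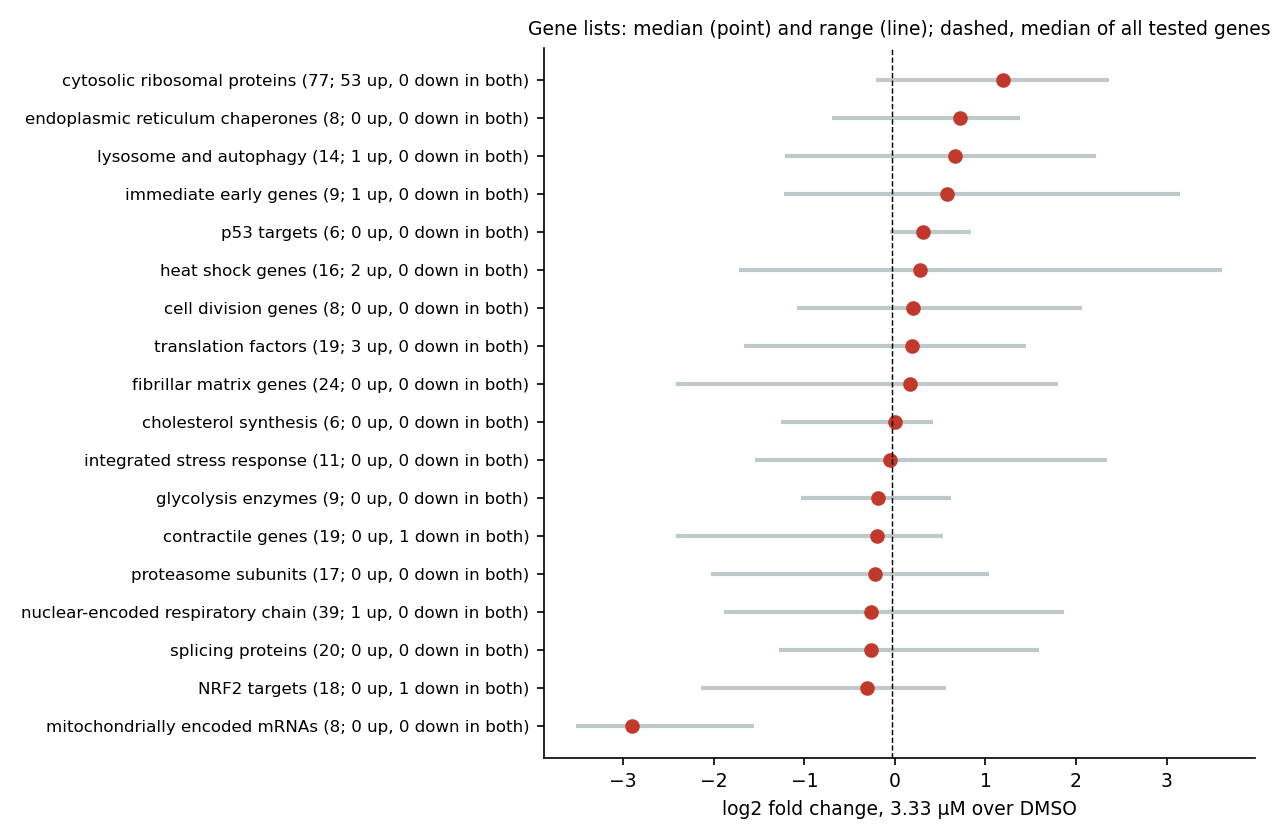
Median (point) and range (line) of the log2 fold change of the tested members of each list with at least 5 tested members. The number tested and the numbers past both tests stand in brackets, and the dashed line marks the median of all tested genes at -0.03. The ribosomal protein median lies at 1.20 and that of the mitochondrially encoded mRNAs at -2.91, with the other medians between them.

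Genes with GC-rich transcripts lay higher. Ribosomal protein genes aside, the 1711 tested genes with an annotated transcript were split by GC content into 5 groups of 342 or 343, whose median log2 changes, in order of increasing GC, were -0.38, -0.43, -0.23, 0.19 and 0.33. In the lowest group 3 genes lay above and 68 below every DMSO well, and in the highest 20 lay above and 20 below. Median GC was 55.1% over the 27 other genes that rose, 45.6% over the 38 that fell and 49.8% over all tested genes. The transcripts of the 38 had a median length of 1598 bases, those of the 27 a median of 890 bases, and those of all tested genes 1238 bases. Over the 1711 genes, the Spearman correlation with the log2 change was 0.298 for GC content and -0.058 for transcript length. For the mean CPM in DMSO wells, which the depth filter ties to the change, it was -0.383. These are descriptions over genes that share the same wells, with no test.

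Set against 1.11 µM, the dose below, heat shock genes took a smaller share of counts at 3.33 µM. Over 1706 genes tested between these 4 and 4 wells, edgeR called 215 (12.6%), 130 higher (7.62%) and 85 lower (4.98%), and the voom test with group spread called 241. Of 22 tested heat shock genes, 19 were called lower at 3.33 µM and 0 higher, with a median log2 change of -3.40. Against DMSO, 16 were tested. A gene could be kept here through its level at 1.11 µM alone, which fixes a lower level at 3.33 µM, so these counts support no direction. The share of the whole list, which passes through no filter, was 0.901 ± 0.0698% at 3.33 µM and 7.02 ± 1.12% at 1.11 µM (n = 4 each). HSPA6 averaged 232 ± 80.2 CPM at 3.33 µM and 3243 ± 439 CPM at 1.11 µM (log2 -3.73 ± 0.28, adjusted p = 7.38e-06), and HSPA1A 1160.4 ± 327 CPM at 3.33 µM and 11204 ± 1903 CPM at 1.11 µM (log2 -3.22 ± 0.21, adjusted p = 3.28e-06). DNAJB1 averaged 183 ± 50.8 CPM at 3.33 µM and 3714 ± 807 CPM at 1.11 µM. These genes were thus above DMSO and below 1.11 µM. HSPA8, CRYAB and HSP90AA1 were lower at 3.33 µM as well (log2 -3.41, -3.48 and -3.15).

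HMOX1 was also lower at 3.33 µM than at 1.11 µM. Unlike HSPA6, HSPA1A and DNAJB1, but like HSP90AA1, it lay below DMSO. It averaged 200.5 ± 83.0 CPM at 3.33 µM and 12258.5 ± 3655 CPM at 1.11 µM (log2 -5.88 ± 0.35, edgeR adjusted p = 2.63e-06). NQO1 and TXNRD1 did not pass the test between these doses (log2 -0.60 and -1.05, adjusted p = 0.666 and 0.419). Of 17 NRF2 targets tested between the doses, 1 was called higher and 1 lower, against 7.62% and 4.98% of all genes tested there.

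The ribosomal protein genes were raised against 1.11 µM too. Of 77 tested, 64 were called higher and 0 lower, against 7.62% of all genes. Their share was 25.8 ± 0.666% at 3.33 µM and 11.5 ± 0.553% at 1.11 µM, while 10 µM had 19.3 ± 2.09% on wells of 30831 counts. RPL36 averaged 5265 ± 443 CPM at 3.33 µM and 1219 ± 149 CPM at 1.11 µM (log2 2.18 ± 0.14, edgeR adjusted p = 2.63e-06). SLC2A4 averaged 305 ± 21.1 CPM at 3.33 µM and 71.2 ± 17.6 CPM at 1.11 µM (log2 2.16 ± 0.45, edgeR adjusted p = 0.00775). Its level at 1.11 µM alone would not have passed the depth filter, which fixes a higher level at 3.33 µM. TFPI2 (-0.34, adjusted p = 0.394), GADD45B (-0.98, adjusted p = 0.292) and ID1 (-0.53, adjusted p = 0.473) did not pass edgeR. The 2 comparisons share the 4 wells at 3.33 µM.

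**Figure D5:**
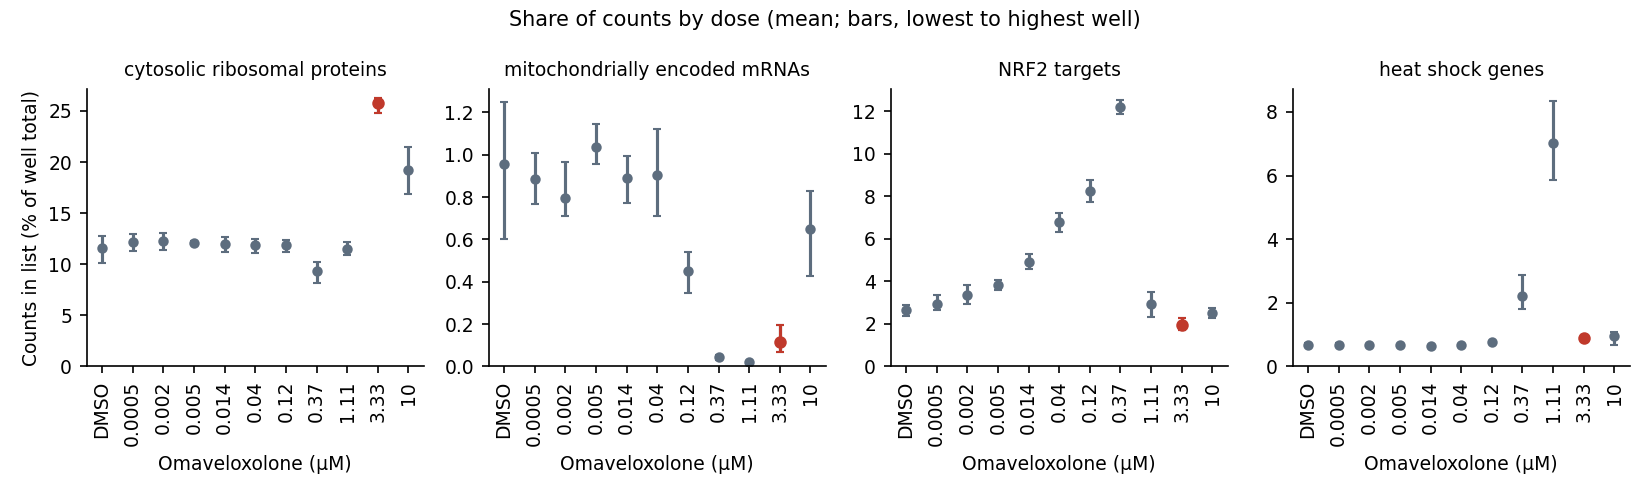
Share of a well's counts taken by 4 gene lists, in DMSO wells and at each dose in order, as the mean with a bar from the lowest to the highest well; 3.33 µM is in red. The ribosomal protein share is highest at 3.33 µM, at 25.8%, the heat shock share at 1.11 µM, at 7.02%, and the NRF2 target share at 0.37 µM, at 12.2%. Most of that NRF2 target share is FTL.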

How the data were processed

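Polyadenylated RNA of 72 wells was measured by DRUG-seq. The authors deposited raw counts per gene and well. The submitters' processing notes name kallisto, bustools and the build GRCh38. Versions, annotation, strand and collapsing of molecular identifiers are not given in the sources used here, so counts may be reads rather than molecules. Y-linked genes and XIST (38 of 23170 genes) were left out. Gene positions come from GENCODE v29, which matched 23078 of the genes, and start-site sequences from RefSeq.

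Wells were grouped by their dose labels. Counts of 3.33 µM and DMSO wells, and separately of 3.33 µM and 1.11 µM wells, were fitted with edgeR 4.0.16 (quasi-likelihood, robust, TMM scaling) in R 4.3.3, for genes with at least 10 expected counts in the shallowest treated well, with Benjamini-Hochberg adjustment over all tested genes at 0.05. limma 3.58.1 (voom with group weights) and DESeq2 1.42.0 served as alternatives. The fits were also run on simulated counts with the same spread in both groups, so that check does not cover the unequal spread seen here. Single measures were compared by exact permutation in Python 3.11.15. The members and lists were chosen with earlier results of these data known. Genes were named by a rule: a set of NRF2, heat shock and stress genes, the 10 most abundant genes of the treated wells, the 10 largest rises and the 10 largest falls of called genes outside the DMSO range, and up to 4 called members with the largest change per list. Genes of this rule that passed edgeR alone are given largely as counts, and genes named outside it (such as HSPA8, CRYAB, HSP90AA1, RACK1 and COX4I1) were chosen after their values were seen. Some genes that the rule names are not reported here. Of 8 same-number pairs of wells, none had deviations correlated above 0.1 (highest 0.0364), so no pairing by replicate number was seen. The treated wells vary so widely that this check could hardly have shown one.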

Additional observations from a re-analysis of the deposited data

Results flagged for a closer look

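Among 134 sets of 4 treated wells examined, 11 held a well that stood far from the other 3 by Dixon's criterion for 4 values, which chance gives in about 1 of 20 sets. Replicate 3 was lowest in the share of counts on the 50 most abundant genes, at 41.6%, and highest in CACYBP, a ubiquitin ligase adaptor, at 117 CPM and in ATF4 at 239 CPM. Replicate 1 was highest in ACTA2 at 120.3 CPM and in NDUFB1, a complex I subunit, at 433 CPM. Replicate 2 was highest in RNF11 at 22.7 CPM and in FAP, a fibroblast surface protease, at 144 CPM. Replicate 4 was highest in TMED2 at 19.2 CPM and in the summed endothelial markers at 0.00623% of counts, and lowest in MT-ND2 at 0 CPM and in the cholesterol synthesis list at 0.104% of counts. In TMED2, RNF11 and the endothelial markers the other 3 wells held 0 counts.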

How the results depend on the processing

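The single well measures kept their direction and passed the exact permutation test under every alternative run. The 1040 genes that edgeR called against DMSO stood between 962 and 1150 under other scalings, DESeq2's Wald test, thinned DMSO wells, a plate side term, all 72 wells or any treated well left out. They became 5503 with no depth filter, 407 with a minimum of 30 expected counts, 118 with voom and 189 with DMSO taken from rows K and L alone. No pairing by replicate number was seen, and the replicate block gave 108 calls. Against 1.11 µM, the 215 calls became 526 with no depth filter, 371 with the Wald test, 931 with all 72 wells and 148 with the replicate block. Lists other than cell type markers that had at least 5 tested members and a median above that of all genes numbered 10, and 20 with no depth filter. Genes past both tests numbered 70 to 91 with 1 treated well left out, 124 with library totals and 154 with thinned DMSO wells. The causes were not tested.

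Among 103 named genes, 68 lost their call with voom and 67 with the block. Signs turned in these. VIM became -0.038 with library totals, -0.14 with no filter and -0.083 at 30 counts, and S100A6 -0.032, -0.14 and -0.074. With voom, PSMD11 became -0.70, PDIA6 -0.10 and TK1 -0.52. With the block, DUSP1 became -0.26, PSMD11 -0.31 and TK1 -0.51. HSPA5 became 0.093 with DMSO from rows K and L alone. With 1 treated well left out, NDUFB1 ranged from -0.12 to 2.31, DUSP1 from -0.45 to 2.01, JUN from -0.13 to 0.97, TK1 from -0.43 to 1.29, ATF4 from -0.54 to 0.022 and HSPA5 from -0.95 to 0.14. Depth limits calls to abundant genes, and a gene whose DMSO level predicts too few counts is tested only where the treated wells raise its mean. A gene a little above that level is left out where it falls far.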

Other observations

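SLC2A4 averaged 71.2 ± 17.6 CPM at 1.11 µM, 305 ± 21.1 CPM at 3.33 µM and 699 ± 170 CPM at 10 µM (SD, n = 4 each). The wells at 10 µM held 30831 counts on average, so that this level rests on few counts. HSPA6 ran the other way, with 3243 CPM at 1.11 µM, 232 CPM at 3.33 µM and 0 counts at 10 µM.

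The mitochondrially encoded mRNAs held nearly the same mean number of raw counts at the 2 highest doses, while the totals differed. They summed on average to 64261 counts per well in DMSO wells, 327 at 1.11 µM, 192 at 3.33 µM (113 to 335) and 193 at 10 µM. Their share of counts was 0.955% in DMSO wells, 0.0211% at 1.11 µM, 0.116% at 3.33 µM and 0.650% at 10 µM.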
